A study of Mus musculus with 2 samples.

Results

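The 34 genes described here encode core proteins of the spliceosome, the machine that cuts introns from pre-mRNA. They were chosen by name: 7 proteins of the Sm ring, 3 proteins of the U1 particle, 5 proteins that act at the branch point and the 3′ splice site, 2 proteins of the U5 and minor particles, 7 proteins of the LSm ring and 10 SR proteins. All 34 names were found among the 55450 genes of the count matrices, and the rule itself uses names and no measured value, although it was written with earlier results of these data known.

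A spliceosome is built anew on each intron from small nuclear ribonucleoproteins, each a short RNA with its own proteins. The Sm proteins close as a ring around the U1, U2, U4 and U5 RNAs, a step that the SMN complex carries out in the cytoplasm, and the LSm proteins form the matching ring on U6 RNA. SR proteins bind exons and help the particles to choose splice sites. PRMT5, with its partner Wdr77, places symmetric dimethylarginine on SmB/B′, SmD1 and SmD3, and cells treated with PRMT5 inhibitors are known for retained introns.

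The cells came from subcutaneous EMT6 tumors, a mouse triple-negative mammary carcinoma line, grown in BALB/c mice and sequenced with the 10x Genomics 3′ kit. All mice received the PARP inhibitor Olaparib at 50 mg/kg daily and the PRMT5 inhibitor LLY-283, also at 50 mg/kg, in cycles of 3 days with and 4 days without it. The mice of the Combo group were additionally given an anti-PD-1 antibody at 200 µg. Each group is 1 library made from the pooled tumors of 3 mice, so an effect of the group cannot be told apart from one of the library or the pooled animals, and no test between groups was possible. No untreated library was analysed here, so none of the comparisons concerns PRMT5 inhibition itself, and 3′ counts measure how much mRNA a gene has, not how introns were spliced.

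The libraries held 16115 barcodes and 147214934 UMIs (Olaparib + LLY-283) and 7542 barcodes and 162522700 UMIs (Combo). After filtering, 8153 and 2567 cells carried UMIs of the epithelial markers Krt8, Krt18, Krt7, Krt19, Epcam and Sfn (1182 and 1059 CPM summed, all 6 detected), did not reach the marker limit of any other class, and are called tumor-like. Their median depth was 9889 and 48291 UMIs per cell. Of the 13945 and 5666 cells left after filtering and removal of doublets, 9554 and 4099 fell in any class. The rest are in none of the class sums. A class needed at least 2 detected markers, so shallow cells could be left out more easily, and the libraries differed in depth. The libraries shared 39 barcodes, and leaving these out did not change any count of the 34 genes past a fold in the phase, tumor-like or class comparisons. Levels are UMIs summed over a set of cells, per 1000000 UMIs of that set (CPM). Each UMI marks the 3′ end of 1 transcript, so CPM needs no correction for length. Intervals are exact 95% intervals and cover counting error only.

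The promoters of 4 of the genes are shown here as examples from the phase comparison that follows. Lsm2 had the largest ratio, and Srsf5 and Snrnp200 were among the smallest. Srsf1 was among the SR genes with the larger ratios, but lay below Lsm3 in S and G2/M and below Srsf7 in S. Each line gives the 200 bases before the RefSeq transcript start (for Lsm2, the first of its starts) on the GRCm38.p6 build, read 5′ to 3′ on the gene's strand, at chr17:34981654-34981853 (Lsm2, plus strand), chr11:88047173-88047372 (Srsf1, plus strand), chr12:80945299-80945498 (Srsf5, plus strand) and chr2:127208186-127208385 (Snrnp200, plus strand). Capitals mark a CCAAT box in Lsm2 and the E2F-type letters TTCCCGC in Srsf1.
Lsm2: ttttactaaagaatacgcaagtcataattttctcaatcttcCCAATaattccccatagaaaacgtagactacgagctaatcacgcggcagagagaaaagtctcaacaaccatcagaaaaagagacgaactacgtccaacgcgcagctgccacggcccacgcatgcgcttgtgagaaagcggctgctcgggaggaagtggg
Srsf1: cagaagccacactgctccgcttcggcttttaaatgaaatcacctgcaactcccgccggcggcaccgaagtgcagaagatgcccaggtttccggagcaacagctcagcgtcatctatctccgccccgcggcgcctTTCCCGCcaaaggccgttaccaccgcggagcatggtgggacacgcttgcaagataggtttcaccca
Srsf5: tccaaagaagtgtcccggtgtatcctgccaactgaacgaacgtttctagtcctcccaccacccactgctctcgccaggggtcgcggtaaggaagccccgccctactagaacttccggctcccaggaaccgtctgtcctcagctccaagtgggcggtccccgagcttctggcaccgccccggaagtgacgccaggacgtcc
Snrnp200: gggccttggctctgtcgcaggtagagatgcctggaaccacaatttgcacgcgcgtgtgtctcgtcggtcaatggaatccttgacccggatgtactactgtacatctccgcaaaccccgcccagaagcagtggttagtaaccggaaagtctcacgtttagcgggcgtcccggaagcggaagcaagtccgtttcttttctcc

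RefSeq windows of 250 bases before to 50 bases after a start were found for 30 of the 34 genes, in 37 windows (Snrpb, Snrpd1, U2af2 and Lsm4 had none). Letters were searched on both strands. TTCCCGC stood in 8 of the 37 windows (21.6%) against 4.60% of all 32851 mouse windows. These windows belonged to 6 genes, Snrpa, U2af1, Lsm3, Srsf1, Srsf4 and Srsf10. The other E2F-type spelling, TTGGCGC, can share bases with a CCAAT box on the opposite strand. It stood in 4 windows (10.8%) against 2.45%, in 3 genes, Snrpg, Snrnp70 and U2af1. Windows of the same gene can overlap, so the same TTCCCGC of Srsf4 and the same TTGGCGC of U2af1 were counted more than once. The CCAAT box was about as frequent in these windows as elsewhere (35.1% against 37.4%). TTTGAA, the core of the CHR element, stood in 10.8% against 17.9%, and the E-box CACGTG in 5.41% against 7.15%. Genes with TTCCCGC included Lsm3, with large phase ratios, and Snrpa, with a small ratio in S. Srsf7, with a larger S ratio than Srsf1, held none of the letters searched. A link between letters and ratios was not tested. A match is a description of letters, not of binding.

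Across all tumor-like cells the 34 genes made up 0.681% of UMIs with Olaparib + LLY-283 and 0.692% with Combo. The Sm ring held the largest part, with 2791 and 2855 CPM, followed by the SR genes with 1695 and 1686 CPM and the LSm ring with 1159 and 1145 CPM. The U2 and 3′ splice site genes summed to 712 and 747 CPM, the U1 genes to 348 and 380 CPM, and Snrnp200 with Snrnp25 to 105 and 110 CPM. Snrpg was the highest single gene at 641 and 681 CPM, and Snrnp25, a protein of the minor U11/U12 particle, the lowest at 33.7 and 34.3 CPM. The order of the groups was the same in both libraries.

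The first comparison asked how the genes varied over the cell cycle within each library. Tumor-like cells with at least 3000 UMIs were thinned to 3000 and called G1, S or G2/M from published phase genes, with the 34 genes left out of the scores. G1 was the call for every cell above the limit of neither the S nor the G2/M score. It can thus include cells outside the cycle, which were not told apart from G1. In S, 28 of the 34 genes were at least 25% higher than in G1 in both libraries, against 15.5% of all genes tested. In G2/M, 27 of 34 were higher in both, against 15.1%, and 26 of 34 were higher in both phases and both libraries, against 11.1%. None of the 34 was at least 20% lower, the same fold downward, in both libraries, in S (10.2% of all genes) or in G2/M (10.1%). Summed over the 34 genes, the level went from 5393 CPM in G1 to 7471 in S and 7541 in G2/M in the Olaparib + LLY-283 library, and from 5305 to 7875 and 7919 CPM in the Combo library. Between S and G2/M the genes differed little, with median log2 ratios of -0.01 and -0.00.

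The phase calls covered 7879 and 2521 cells. G1 held 41.6% (40.5 to 42.7) and 45.6% (43.7 to 47.6) of them, S 23.5% (22.5 to 24.4) and 24.2% (22.5 to 25.9), and G2/M 34.9% (33.8 to 36.0) and 30.2% (28.4 to 32.1). Ccnb1 and Mcm3, which are in neither phase list, were highest in the phase where their products act: Mcm3, a replication helicase subunit, was at 17.4, 81.1 and 36.5 CPM in G1, S and G2/M of the Olaparib + LLY-283 library, and Ccnb1, the mitotic cyclin, at 11.7, 29.8 and 130 CPM. Cells called S or G2/M were also deeper, with median UMIs of 8322, 11004 and 12428.5 in G1, S and G2/M of the Olaparib + LLY-283 library and 41481, 56979 and 59612.5 of the Combo library. With each library's cells cut into 3 equal parts by depth, the median log2 ratio of the 34 genes still lay between 0.41 and 0.51 in S. In G2/M it lay between 0.36 and 0.63, and medians of all genes lay between -0.09 and 0.08. The deepest part of tumor-like cells was also set against the shallowest. The median log2 ratios of the 34 genes were 0.21 (Olaparib + LLY-283) and 0.47 (Combo), against -0.04 and 0.03 for all genes. With each phase cut separately, the medians were 0.09 and 0.27 in G1, 0.14 and 0.24 in S, and 0.06 and 0.06 in G2/M. Those of all genes lay between -0.04 and 0.11. Beyond these splits, the part of depth in the phase ratios was not tested. The score of 574 and 187 cells lay within 0.02 of the limit between G1 and the other phases.

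Every gene of the Sm ring was at least 25% higher in S and in G2/M than in G1 in both libraries. Snrpb encodes SmB/B′, which pairs with SmD3. It stood at 305, 430 and 413 CPM in G1, S and G2/M of the Olaparib + LLY-283 library, and at 301, 437 and 429 CPM of the Combo library. Its log2 ratio of S over G1 was 0.50 (0.46 to 0.54) and 0.54 (0.50 to 0.57). Snrpd1 encodes SmD1, and its phase difference was the largest of the ring. It went from 302 CPM in G1 to 451 in S and 444 in G2/M, and in the Combo library from 270 to 469 and 458 CPM. The S ratio was 0.58 (0.54 to 0.62) and 0.80 (0.76 to 0.83), so the libraries differed by more than counting error here. Snrpd2 encodes SmD2, the partner of SmD1, and was the least abundant of the ring, at 177, 246 and 229 CPM and at 192, 276 and 259 CPM. Snrpd3, which encodes the PRMT5 substrate SmD3, stood at 259, 352 and 329 CPM and at 246, 363 and 334 CPM.

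The other genes of the ring encode SmE, SmF and SmG, which enter it as a trimer. Snrpe went from 436 CPM in G1 to 562 in S and 567 in G2/M, and in the Combo library from 387 to 521 and 526 CPM. Snrpf, which has an opposite-strand gene at its 3′ end, stood at 257, 367 and 348 CPM and at 297, 444 and 425 CPM. Snrpg, the most abundant of the 34, stood at 544, 699 and 684 CPM and at 576, 759 and 734 CPM. In all 3 genes S and G2/M lay close together and above G1, with S over G1 log2 ratios of 0.37, 0.51 and 0.36 in the Olaparib + LLY-283 library and 0.43, 0.58 and 0.40 in the Combo library. Over the whole ring, the median log2 ratio was 0.47 and 0.54 in S and 0.38 and 0.44 in G2/M.

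**Figure D1:**
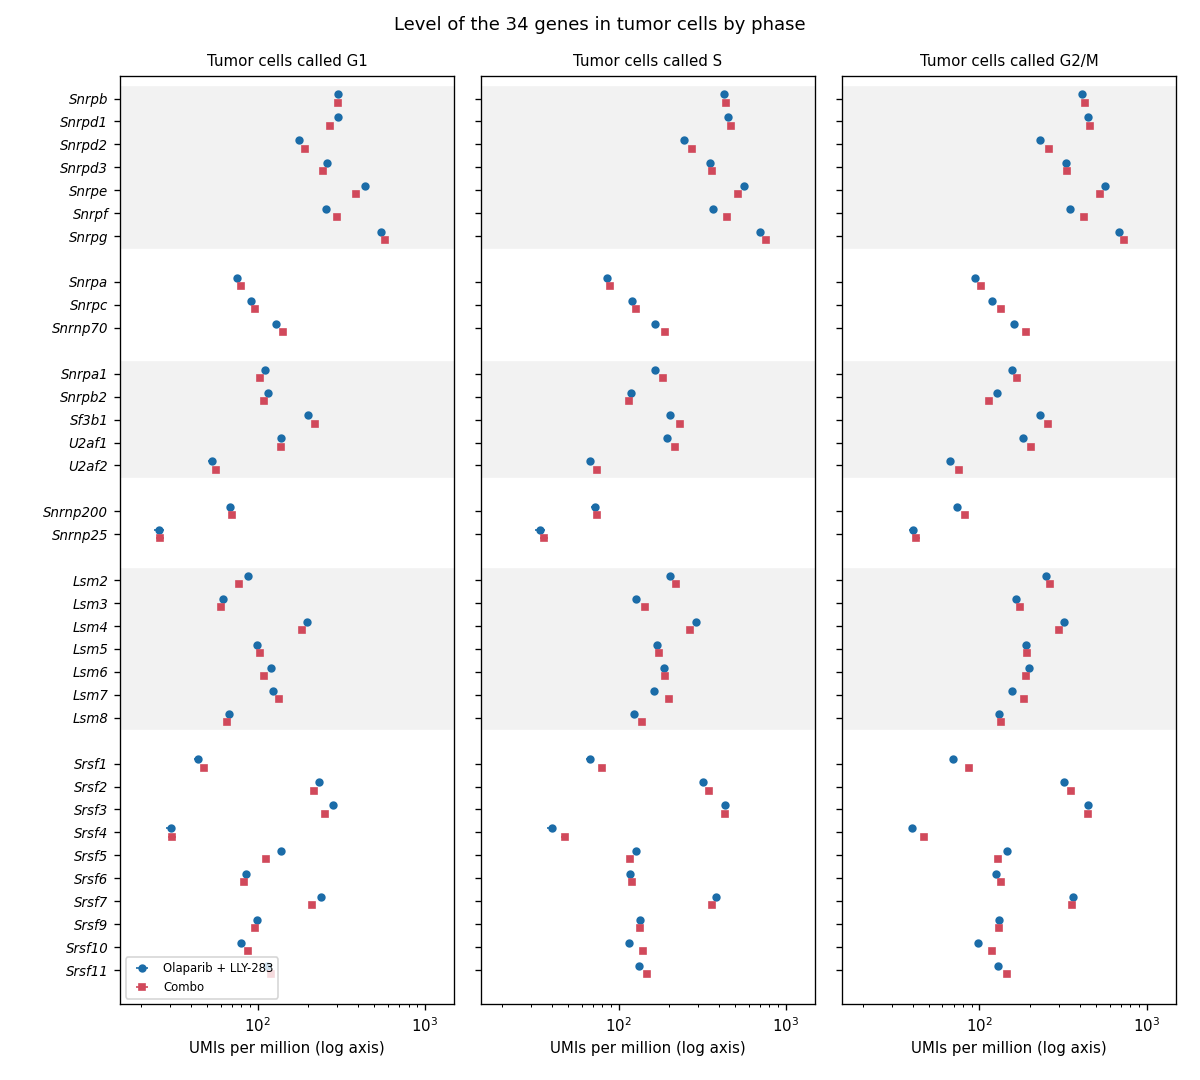
Level of each of the 34 genes in tumor-like cells called G1, S or G2/M (CPM, log axis). Circles are the Olaparib + LLY-283 library and squares the Combo library, bars are exact 95% counting intervals, mostly smaller than the points, and shading separates the gene groups from top to bottom (Sm ring, U1, U2 and 3′ splice site, U5 and minor, LSm ring, SR). Snrpg is highest in each panel and Snrnp25 is lowest in G1 and S.

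The LSm ring showed the largest phase differences. All 7 genes were at least 25% higher in S and in G2/M than in G1 in both libraries. Lsm2 went from 88.0 CPM in G1 to 204 in S and 251 in G2/M, and in the Combo library from 77.6 to 220 and 263 CPM. Its log2 ratio was 1.21 (1.15 to 1.28) and 1.5 (1.44 to 1.56) in S and 1.51 (1.45 to 1.58) and 1.76 (1.71 to 1.81) in G2/M, which placed it between the 97.4th and 97.8th percentile of all genes tested. Its promoter is shown above and holds neither E2F-type spelling.

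Lsm3 came next, with 62.0, 128 and 166 CPM and 60.4, 145 and 175 CPM. Its S ratio was 1.04 (0.96 to 1.13) and 1.26 (1.20 to 1.33), and its G2/M ratio was 1.42 (1.35 to 1.49) and 1.53 (1.47 to 1.59). Lsm2 and Lsm3 were also the genes with the largest ratio of G2/M over S, at 0.30 and 0.26 for Lsm2 and 0.38 and 0.27 for Lsm3. Lsm8, the subunit that sets the nuclear ring apart from the cytoplasmic Lsm1 ring that acts in mRNA decay, stood at 67.8, 123 and 130 CPM and at 65.4, 139 and 134 CPM. Lsm5 followed with G2/M ratios of 0.93 and 0.89 and Lsm6 with 0.72 and 0.79. Lsm4, whose product also carries symmetric dimethylarginine, was the most abundant gene of the ring at 198, 291 and 318 CPM and at 184, 269 and 299 CPM. Lsm7 had the smallest G2/M ratios of the ring, 0.33 and 0.47. Part of the last 500 bases of Lsm3 (26.3% of their 60-base words), Lsm5 (42.8%) and Lsm7 (18.8%) is shared with other annotated genes, so their levels are less certain.

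The remaining particle proteins split. In the U1 particle, Snrpc (the C protein, which contacts the 5′ splice site) and Snrnp70 (the protein that binds the first stem-loop of U1 RNA) were past 25% in both phases, with S ratios of 0.39 and 0.40 for Snrpc and 0.35 and 0.41 for Snrnp70. Snrpa (the A protein) passed in G2/M (0.32 and 0.36) but had S ratios of 0.17 and 0.16. Other annotated genes share 30.8% of the words at the 3′ end of Snrpc and 15.9% at that of Snrpa, which makes these levels less certain too. Among the U2 and 3′ splice site genes, Snrpa1 (the A′ protein of U2) and U2af1, the small subunit that reads the AG at the 3′ splice site, passed in both phases. Snrpa1 went from 111 CPM in G1 to 165 in S and 158 in G2/M, and in the Combo library from 103 to 184 and 169 CPM. U2af1 stood at 138, 195 and 181 CPM and at 137, 217 and 203 CPM, though 70.5% of the words in its last 500 bases occur in other annotated genes. U2af2, the large subunit that binds the polypyrimidine tract, had S ratios of 0.36 and 0.40 and G2/M ratios of 0.32 and 0.42, just under 25% in one of these 4 values.

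The remaining 3 genes of these groups were close to level in S. Snrpb2 (the B′′ protein of U2) stood at 116, 119 and 127 CPM and at 110, 115 and 115 CPM, with S ratios of 0.04 (-0.03 to 0.11) and 0.07 (0.01 to 0.13). Sf3b1, the subunit of SF3b that clamps the branch point and a common mutation target in blood cancers, stood at 201, 204 and 232 CPM and at 220, 232 and 256 CPM. Its S ratios were 0.02 (-0.03 to 0.08) and 0.08 (0.04 to 0.12). Snrnp200, the Brr2 helicase that unwinds U4 from U6, had S ratios of 0.07 and 0.09 and G2/M ratios of 0.10 and 0.24. The other gene of that group, Snrnp25, went from 25.6 CPM in G1 to 33.8 in S and 40.0 in G2/M, and in the Combo library from 26.0 to 35.7 and 41.9 CPM.

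Of the 10 SR genes, 8 were at least 25% higher in S in both libraries and 7 in G2/M, where Srsf10 (0.30 and 0.44) fell short in the Olaparib + LLY-283 library. Srsf7 (0.67 and 0.79), Srsf1 (0.62 and 0.72) and Srsf3 (0.60 and 0.76) had the largest S ratios. Srsf1, the SR protein first studied as SF2/ASF, went from 43.8 CPM in G1 to 67.5 in S and 69.8 in G2/M, and in the Combo library from 48.0 to 79.1 and 86.0 CPM. Srsf3, the most abundant SR gene, stood at 284, 432 and 443 CPM and at 255, 431 and 448 CPM, and Srsf7 at 240, 382 and 363 CPM and at 211, 364 and 359 CPM. Srsf2, Srsf4, Srsf6, Srsf9 and Srsf10 had S ratios between 0.40 and 0.52 in the Olaparib + LLY-283 library and between 0.47 and 0.68 in the Combo library. An opposite-strand gene lies at the 3′ end of Srsf2 and of Srsf4.

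Srsf5 and Srsf11 were the exceptions. Srsf5 stood at 138, 127 and 145 CPM in G1, S and G2/M of the Olaparib + LLY-283 library and at 113, 117 and 128 CPM of the Combo library. Its S ratio was -0.12 (-0.18 to -0.05) and 0.05 (-0.01 to 0.11), the only one of the 34 with opposite signs in the libraries. Srsf11 had S ratios of 0.22 and 0.29 and G2/M ratios of 0.18 and 0.27, below 25% in both libraries.

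**Figure D2:**
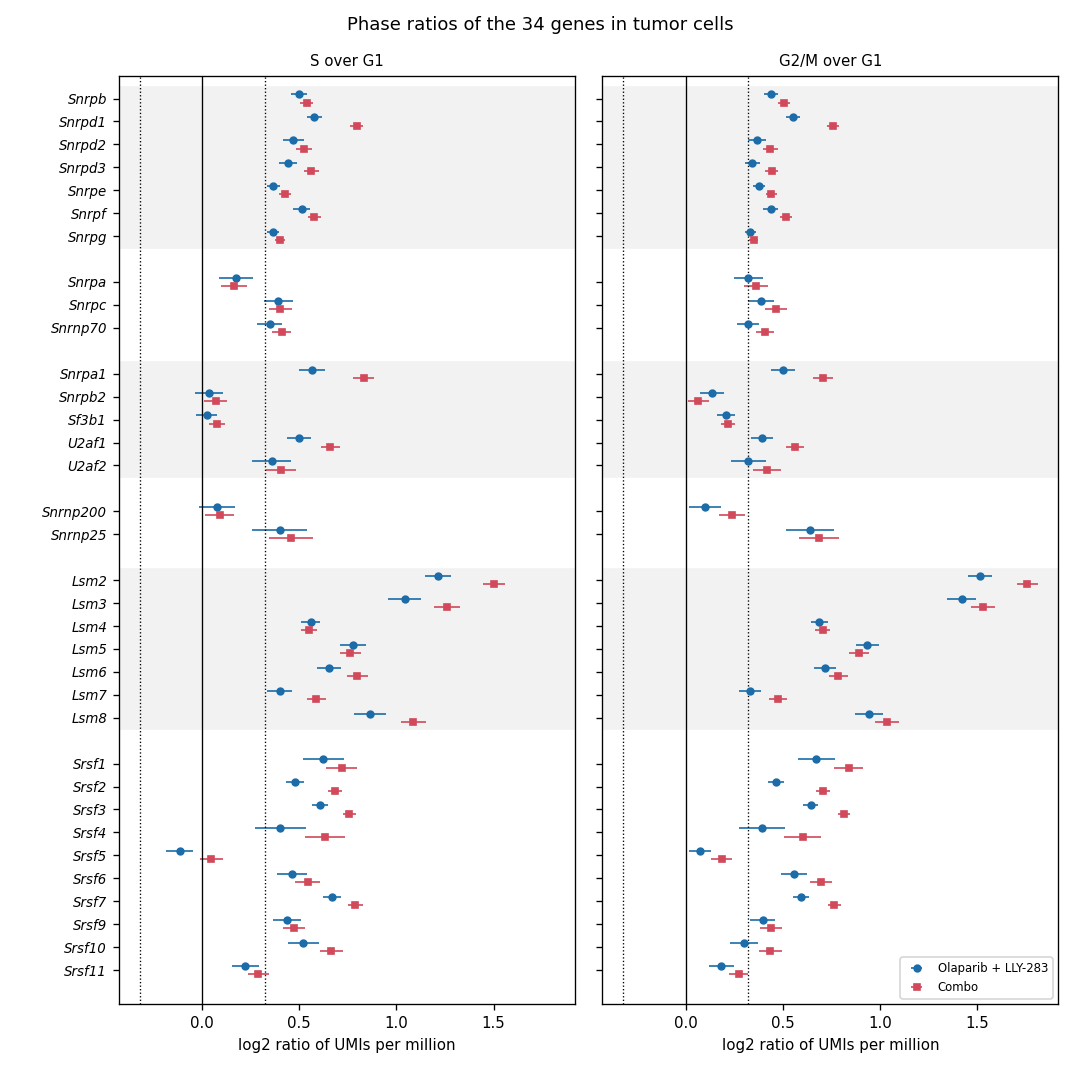
Log2 ratio of S over G1 and of G2/M over G1 for each of the 34 genes in tumor-like cells. Circles are the Olaparib + LLY-283 library, squares the Combo library, bars exact 95% counting intervals, and dotted lines 25% higher and 20% lower. Lsm2 and Lsm3 lie farthest to the right in both panels, and Srsf5, Sf3b1, Snrpb2 and Snrnp200 lie nearest to 0.

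Genes that assemble or modify the rings were read beside them. For these and the following lists, the shares of all genes higher in both libraries are the 15.5% in S and 15.1% in G2/M given above. Of the 5 methylosome genes, 3 were at least 25% higher in S in both libraries and 2 in G2/M. Prmt5 itself went from 28.5 CPM in G1 to 41.0 in S and 40.6 in G2/M, and in the Combo library from 28.3 to 43.9 and 45.2 CPM. Wdr77 had S ratios of 0.59 and 0.88. Of the 9 genes of the SMN complex, 8 could be tested, and 5 were higher in S and 4 in G2/M in both libraries. Gemin6 had the largest ratio of these 8, from 9.60 to 26.2 CPM (log2 ratio 1.45) and from 9.57 to 28.5 CPM (1.58), and Gemin2 followed with 0.78 and 1.06.

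Other splicing genes were mixed. Of 29 other snRNP proteins, 28 could be tested, and 12 were higher in S and 14 in G2/M in both libraries, led in S by Prpf4 (0.95 and 1.13), of the U4/U6 particle, and Phf5a (0.78 and 1.02), of SF3b, and in G2/M by Ppih (0.95 and 1.10), also of the U4/U6 particle. Snrnp48 (-0.08 and -0.09) and Prpf6 (-0.08 and -0.05) were lowest in S among those with the same sign in both libraries. Of 6 other Lsm genes, 2 were higher in S, Lsm1 (0.51 and 0.52) and Lsm11 (0.95 and 1.00), a protein of the U7 particle that processes histone mRNA. Lsm10, the partner of Lsm11, went the other way, with G2/M ratios of -0.36 and -0.36, at least 20% lower in both libraries like 10.1% of all genes. Of 19 hnRNP genes, 7 were higher in S and 8 in G2/M, led by Hnrnpab (0.59 and 0.83) and Hnrnpd (0.63 and 0.77). Of 16 SR kinases and related genes, 15 could be tested and 2 were higher in S in both libraries, near the 15.5% of all genes. These were Srpk1 (0.49 and 0.71), which phosphorylates SR proteins in the cytoplasm, and Luc7l3 (0.53 and 0.56). The nuclear SR kinases Clk1 (-0.29 and -0.44) and Clk3 (-0.27 and -0.53) had ratios below 0 in S, past 20% lower in the Combo library only.

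The second comparison set the Combo library against the Olaparib + LLY-283 library in tumor-like cells. None of the 34 genes was at least 25% higher in Combo, against 14.4% of all genes tested, and none was at least 20% lower, against 6.55%. Their median log2 ratio was 0.03, and that of all genes was 0.06. The ratios ran from -0.22 to 0.24. Scaled to the median gene, the median of the 34 genes was -0.03. Thinning every cell to 3000 UMIs moved 1 of the 34 genes past the fold, Srsf1 at 0.35, against 11.6% of all genes.

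Snrpf had the largest ratio, with 382 CPM in Combo and 322 CPM in Olaparib + LLY-283 (0.24, interval 0.22 to 0.26). Srsf10 followed with 113 and 96.6 CPM (0.22, 0.18 to 0.26) and Srsf1 with 69.9 and 60.6 CPM (0.21, 0.16 to 0.25). At the other end, Srsf5 stood at 119 and 139 CPM (-0.22, -0.25 to -0.18), Snrpe at 472 and 522 CPM (-0.14, -0.16 to -0.13) and Lsm4 at 247 and 272 CPM (-0.13, -0.16 to -0.11). These gaps are wider than counting error, but with 1 library per group the spread between tumors is unknown.

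The rest of the Sm ring lay between these. Snrpb stood at 383 and 381 CPM (0.01), Snrpd3 at 309 and 311 CPM (-0.01) and Snrpd1 at 390 and 398 CPM (-0.03). Snrpd2 stood at 238 and 216 CPM (0.14) and Snrpg at 681 and 641 CPM (0.09). Genes of the same ring thus differed in direction over all tumor-like cells. Snrpf, Snrpd2 and Snrpg were higher in Combo, and Snrpe and to a small degree Snrpd1 lower, by more than counting error. By phase, Snrpd1 had lower CPM in Combo in G1 only, and higher CPM in S and G2/M. Median ratios of the groups were 0.01 for the Sm ring, 0.10 for U1, 0.09 for the U2 and 3′ splice site genes, 0.05 for Snrnp200 and Snrnp25, -0.02 for the LSm ring and 0.03 for the SR genes.

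The same comparison was made within phases, since a larger share of Combo cells was called G1. In G1 the median log2 ratio of the 34 genes was -0.01. In S it was 0.10, and in G2/M it was 0.10. Medians of all genes were 0.06, 0.05 and 0.07. The lowest and highest ratios were -0.29 (Srsf5) and 0.21 (Snrpf) in G1, -0.13 (Srsf5) and 0.29 (Lsm7) in S, and -0.18 (Srsf5) and 0.30 (Srsf1) in G2/M. Srsf5 was thus the lowest in each phase. Prmt5 differed little between the libraries (38.5 CPM in Combo and 36.7 CPM in Olaparib + LLY-283).

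**Figure D3:**
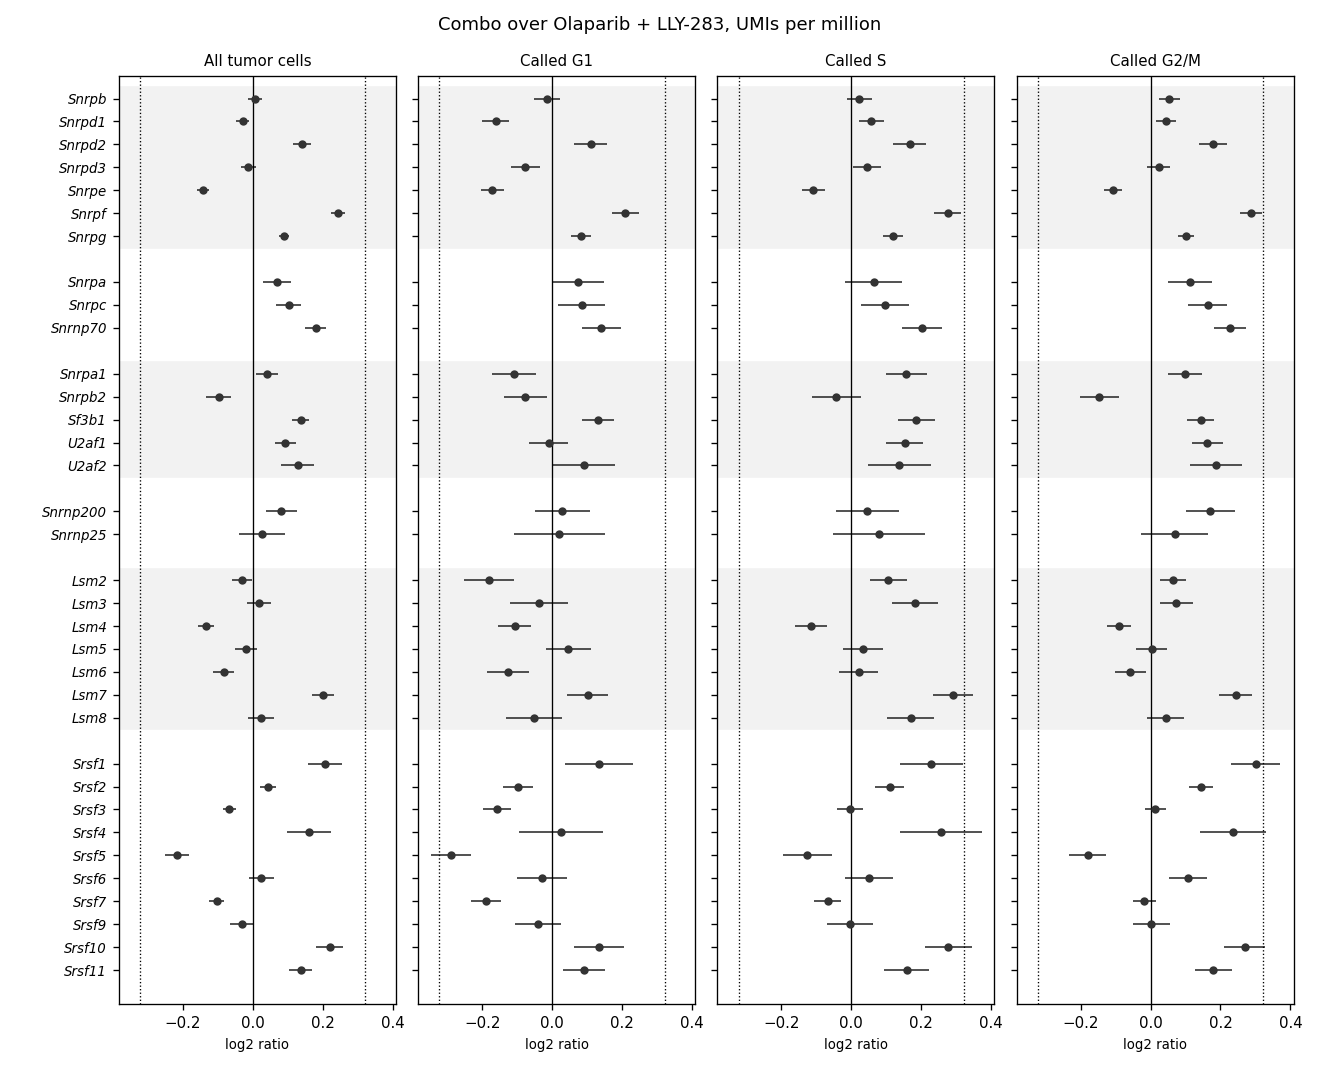
Log2 ratio of Combo over Olaparib + LLY-283 for each of the 34 genes, in all tumor-like cells and in those called G1, S and G2/M. Points are ratios of CPM, bars exact 95% counting intervals and dotted lines 25% higher and 20% lower. All points lie inside the dotted lines, and Srsf5 lies farthest to the left in each panel.

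The third comparison set other cells of the tumors against tumor-like cells of the same library. In single-cell sums, free RNA from lysed cells adds to every class. For each class and library, 20 genes abundant in tumor-like cells and lowest in that class against them were chosen in the other library. The sets were thus chosen separately, and other cell types did not enter the choice. Those of macrophage/monocyte-like cells stood at 16.7% and 11% of their tumor-like level. Those of neutrophil-like cells stood at 31.4% and 21.4%, and those of fibroblast-like cells at 29.1% and 27.0%. The part of this RNA in the values that follow was not tested. The 6 epithelial markers, which the class limits hold low, summed to 68.9 and 114 CPM (3 and 6 detected) in macrophage/monocyte-like, 6.31 and 48.7 CPM (2 and 4 detected) in neutrophil-like and 153 and 138 CPM (4 and 6 detected) in fibroblast-like cells. The classes held 641 and 578 macrophage/monocyte-like, 438 and 783 neutrophil-like and 203 and 78 fibroblast-like cells.

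The 34 genes together were lower in all 3 classes than in tumor-like cells, at 4502 and 4484 CPM in macrophage/monocyte-like, 4251 and 3588 CPM in neutrophil-like and 4268 and 4364 CPM in fibroblast-like cells. These levels were closer to those of G1 tumor-like cells than of S or G2/M ones. Macrophage/monocyte-like cells had 3 of the 34 genes at least 2-fold lower in both libraries, against 16.6% of all genes, and fibroblast-like cells had 4 of 34, against 5.75%. With cells taken from Leiden clusters in place of marker limits, the fibroblast-like count was 1 of 34, against 6.16% of all genes. For all genes tested, the median log2 ratio was -0.22 and -0.18 in macrophage/monocyte-like and -0.01 and 0.02 in fibroblast-like cells, and for the 34 genes it was -0.63 and -0.57 and -0.69 and -0.72.

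By group medians, the LSm ring lay lowest in both classes and libraries (-0.94 and -1.02 in macrophage/monocyte-like, -1.15 and -1.03 in fibroblast-like cells). The Sm ring followed in macrophage/monocyte-like cells (-0.87 and -0.89) and was close to other groups in fibroblast-like cells (-0.84 and -0.87, against -0.82 and -0.79 for the U2 and 3′ splice site genes). In macrophage/monocyte-like cells the 3 genes were Lsm2 (68.9 and 66.3 CPM against 186 and 182 in tumor-like cells), Lsm7 (56.1 and 79.1 CPM against 148 and 170) and Snrpf (137 and 138 CPM against 322 and 382). In fibroblast-like cells they were Lsm2 (65.1 and 55.1 CPM), Lsm3 (53.2 and 52.1 CPM), Lsm4 (123 and 122 CPM) and Lsm5 (62.9 and 68.3 CPM). Several genes were about as high in these cells as in tumor-like cells. Sf3b1 stood at 250 and 270 CPM in macrophage/monocyte-like and 218 and 232 CPM in fibroblast-like cells, against 215 and 236 CPM in tumor-like cells. Srsf11 (142 and 148 CPM, and 144 and 151 CPM, against 125 and 137 CPM) and Srsf9 in macrophage/monocyte-like cells (148 and 130 CPM against 122 and 119 CPM) had higher CPM than in tumor-like cells in both libraries, as had Srsf5 in macrophage/monocyte-like cells (154 and 157 CPM against 139 and 119 CPM). Some of these gaps lay within counting error. Among them were Srsf11 in fibroblast-like cells of both libraries and Srsf5 in Olaparib + LLY-283.

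In neutrophil-like cells the median gene was lower than in tumor-like cells. The median log2 ratio of all genes tested was -0.60 and -1.0, and that of the 34 genes -0.88 and -1.46. At least 2-fold lower in both libraries were 13 of 34 genes, against 27.2% of all genes, 5 of them LSm and 4 Sm genes. Scaled to the median gene, none of the 34 was 2-fold lower in both libraries, against 3.74% of all genes. Their median ratio was -0.28 and -0.46. On that scale it was -0.42 and -0.39 in macrophage/monocyte-like and -0.68 and -0.75 in fibroblast-like cells, so that neutrophil-like cells had the lowest medians of the 3 classes on CPM and not on this scale. These cells were also shallow, with a median of 652 and 1963 UMIs per cell, and most members rested on few UMIs in the Olaparib + LLY-283 library (6 for Snrnp25 to 126 for Sf3b1).

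Srsf5 and Sf3b1 went the other way in these cells, on either scale. Srsf5 stood at 328 and 405 CPM against 139 and 119 CPM in tumor-like cells, a log2 ratio of 1.24 and 1.76. It was the only 1 of the 34 at least 2-fold higher in both libraries, against 10.1% of all genes. Sf3b1 stood at 397 and 559 CPM against 215 and 236 CPM (0.89 and 1.24). Scaled to the median gene, the ratios were 1.84 and 2.76 for Srsf5 and 1.48 and 2.24 for Sf3b1.

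Between the libraries, neutrophil-like cells of Combo had lower CPM of the whole Sm ring. This comparison was not scaled to the median gene, although the shift of the median gene against tumor-like cells differed between the libraries. Of the 34 genes, 19 had enough UMIs for this comparison, and 11 of them were at least 20% lower in Combo, against 28.4% of all genes. At least 25% higher were 3, Sf3b1 (0.49, 0.22 to 0.77), Srsf1 (0.52, -0.26 to 1.41) and Srsf11 (0.38), against 36.4% of all genes. All 7 Sm genes were among the lower ones. Snrpd1 stood at 106 CPM in Combo and 233 CPM in Olaparib + LLY-283 (-1.14, -1.54 to -0.72), Snrpe at 152 and 271 CPM (-0.84, -1.20 to -0.47) and Snrpb at 114 and 180 CPM (-0.66, -1.10 to -0.21). Snrpf (-0.57), Snrpd3 (-0.54), Snrpg (-0.48) and Snrpd2 (-0.42, -0.98 to 0.17) followed. The 20 genes used above for free tumor RNA stood at 21.4% of their tumor-like level in Combo and 31.4% in Olaparib + LLY-283. They were chosen separately for each library, so these shares do not compare 1 set of genes. The 6 epithelial markers summed higher in Combo neutrophil-like cells. The class limits hold these markers low, and more strictly in shallow cells, so these sums cannot compare free tumor RNA between the libraries. Of the neutrophil clusters, one held 856 Combo and 12 Olaparib + LLY-283 cells and the other 561 and 660. The part of these in the difference was not tested.

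**Figure D4:**
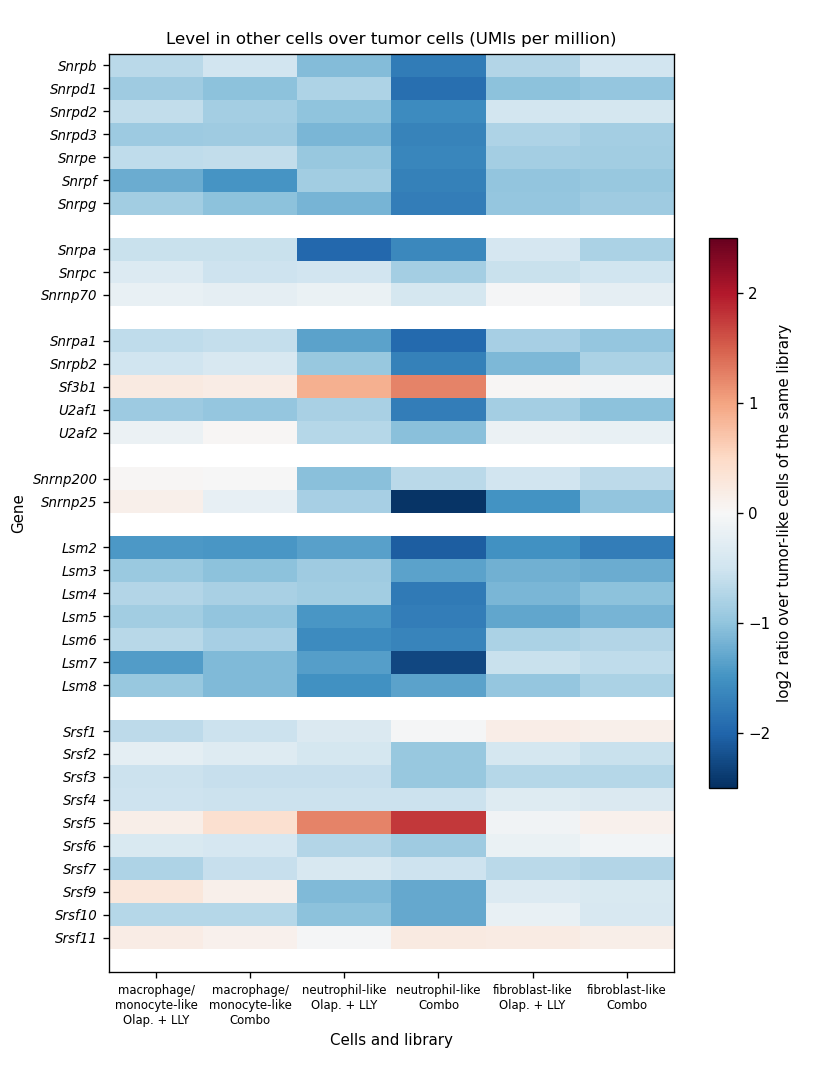
Log2 ratio of each of the 34 genes in macrophage/monocyte-like, neutrophil-like and fibroblast-like cells over tumor-like cells of the same library (ratio of CPM, blue lower, red higher). Gaps separate the gene groups. Sm and LSm genes are blue in every column, and Srsf5 and Sf3b1 are red in the neutrophil-like columns.

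The other classes held 8 to 32 cells per library and are given as sums over the 34 genes only. T and NK-like cells stood at 6048 and 5561 CPM and osteoclast-like cells at 5191 and 5920 CPM. Endothelial-like cells stood at 5229 and 4010 CPM, dendritic-like cells at 4385 and 5054 CPM and muscle-like cells at 4084 and 3541 CPM. All of these values were below the 6811 and 6922 CPM of tumor-like cells. For T and NK-like cells of Olaparib + LLY-283, the gap lay within counting error.

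Macrophage/monocyte-like cells were also split by phase score, as a second cell type in which the phase comparison could be made. With cells of at least 2000 UMIs thinned to 2000, 166 and 253 cells scored as cycling (S or G2/M) and 180 and 283 as G1. The median log2 ratio of the 34 genes, cycling over G1, was 0.26 and 0.24, and that of all genes 0.02 and -0.00. At least 25% higher were 7 of the 23 genes that could be tested in Olaparib + LLY-283, against 11.8% of all genes, and 9 of 34 in Combo, against 9.59%. Lsm2 went from 51.1 to 79.6 CPM in Olaparib + LLY-283 and from 50.1 to 81.7 CPM in Combo, a log2 ratio of 0.64 (-0.05 to 1.34) and 0.71 (0.43 to 0.99). Snrpd1 had ratios of 0.37 (0.01 to 0.73) and 0.44 (0.28 to 0.60). Those of Snrpf, of the same ring, were 0.11 and -0.02, with intervals that included 0. For Srsf5 they were -0.28 (-0.70 to 0.15) and -0.06 (-0.24 to 0.11), so no difference was detectable. Of the genes outside the phase lists, Mcm3 stood at 50.8 against 21.4 CPM and at 58.7 against 26.2 CPM in the same cells. Ccnb1 stood at 26.5 against 6.41 CPM in Combo but at 27.1 against 21.4 CPM in Olaparib + LLY-283, where it rested on 16 and 13 UMIs and no difference was detectable at this depth.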

How the data were processed

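Single-cell libraries of 2 groups were analysed. The authors deposited raw UMI counts per gene and cell, without normalization, and feature and barcode lists; the labels name the mm10 genome, and the matrix header names Cell Ranger 6.1.2, while the methods, from which the doses also come, give a later version. Gene positions are from GENCODE M21, which holds all 55450 identifiers.

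Cells entered if 200 genes or more were detected and mitochondrial UMIs stayed below 20% (16029 and 5956 cells). Scrublet's own threshold marked 2 and 69 cells, so the cells with the highest scores were removed instead, at 0.8% per 1000 cells (2084 and 290). Classes were set by marker UMIs per 10000 UMIs, with at least 2 markers detected; 208 tumor-like, 132 macrophage/monocyte-like, 123 neutrophil-like and 175 fibroblast-like candidates lay within 25% of a limit. Phases were scored with scanpy 1.11.5 on counts thinned to 3000 UMIs. Counts were summed and given as CPM, with exact Poisson, Clopper-Pearson or conditional 95% intervals. A gene counted as tested with at least 100 UMIs over both sides and a UMI in each. With 1 library per group, no p-value, standard error or replicate check is given. Functions were tested on simulated counts. Clustering used leidenalg 0.10.2 and intervals scipy 1.17.1, with pandas 2.3.3, matplotlib 3.10.9 and numpy 2.4.6 under Python 3.11.15.

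The 34 genes and all lists were chosen with earlier results of these data known, and the class limits after seeing the data. Every Sm gene and the 3 largest and 3 smallest ratios of the phase and library comparisons are named in full, and other lists by counts and their leading genes. Promoter windows are from RefSeq (GRCm38.p6), with GENCODE M21 used for shared 3′ sequence. Alternatives concerned thinning, filters, doublets, scaling, weighting, clustering (Leiden) and the fold.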

Additional observations from a re-analysis of the deposited data

Results flagged for a closer look

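In 6 cases the direction differed between the groups of cells or the libraries compared, and none of these differences was tested. Srsf5 had a log2 ratio of S over G1 of -0.12 in Olaparib + LLY-283 and 0.05 in Combo, where the counting interval included 0. The lowest S ratio in Combo, that of Srsf5 in the values given, fell below 0 under some alternatives (-0.04 with phase calls at 5000 UMIs). The other 5 concern Combo over Olaparib + LLY-283, where the counting intervals lay on opposite sides of 0 in tumor-like and neutrophil-like cells. Snrpf was at 0.24 in tumor-like and -0.57 in neutrophil-like cells, Snrpg at 0.09 and -0.48, U2af1 at 0.09 and -0.83, and Srsf2 at 0.04 and -0.45. Srsf5 was at -0.22 in tumor-like and 0.30 in neutrophil-like cells.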

How the results depend on the processing

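No paired analysis was possible because each group is 1 library and no test was run. The counts of genes higher in S (27 to 29 of 34) and in G2/M (22 to 29 of 34) were within 1.5 times of 28 and 27 under all alternatives except a fold of 1.5, where they were 8 and 10 of 34, against 6.85% and 6.88% of all genes. With that setting, where 4-fold replaced 2-fold for classes, the counts of lower genes were 0 in macrophage/monocyte-like, 0 in neutrophil-like and 0 in fibroblast-like cells, and of higher genes 0 in neutrophil-like cells, by the stricter limit itself. Median of ratios scaling gave 0 lower and 2 higher genes in neutrophil-like cells, against 3.74% and 16.9% of all genes. Leiden clusters gave 1 lower gene in fibroblast-like cells in place of 4, against 6.16% of all genes. Thinning cells to 3000 UMIs gave 1 gene higher in Combo tumor-like cells in place of 0, against 11.6% of all genes. The cause was not tested for the last 2. The other 128 recomputed counts were equal to those given or within 1.5 times of them. Many of these were 0 in both, where such a factor has no meaning. No ratio of a gene past the fold changed sign. Of the recomputed ratios, 374 lay outside the counting interval of the value given, or outside a set limit for medians, and 2266 did not. The alternatives for the fold and for the minimum of UMIs cannot change the ratio of a gene. Their ratios are among the 2266 and say nothing on robustness. The processing thus moved some ratios by more than counting error. Leaving out shared barcodes and using Scrublet's own threshold were chosen after seeing the data, as were the split by depth and the macrophage/monocyte-like phases. Depth limits neutrophil-like and smaller classes most.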
